A study of Sus scrofa with 4 samples.

Results

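Parvalbumin (PVALB), the slow myosin light chain gene MYL3 and the AMP-activated protein kinase gene PRKAG3 were followed in longissimus dorsi (LD) muscle of Laiwu pigs. They were chosen by name because each marks a different kind of muscle fibre. The 3 genes correspond to 4 of the 22658 features in the expression tables, because PRKAG3 is annotated at 2 places. All 4 features passed the filter on low counts.

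Muscle fibres are usually sorted into slow fibres, which contract slowly and burn fuel in mitochondria, and fast fibres, which contract quickly and rely more on glycolysis. PVALB encodes a calcium-binding protein that speeds the relaxation of fast fibres. MYL3 encodes the essential light chain that slow fibres share with the heart ventricle. PRKAG3 encodes the gamma subunit of AMP-activated protein kinase (AMPK) that is largely restricted to glycolytic muscle, and in pigs it is known for its influence on muscle glycogen.

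The libraries came from 12 castrated male, wild type pigs of the Laiwu breed, a fatty breed of North China. Their husbandry was alike, and no treatment was given. There were 3 libraries for each of the labelled ages 60 d, 120 d, 240 d and 400 d, and different pigs were sampled at each age, so that differences between ages are differences between animals. The series labels give 1 sample per age, and the 3 libraries of an age are called library 1, 2 and 3 by the order of their columns. Library totals ranged from 9713813 to 13325327 counts.

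The labelled ages do not stand alone. In a gene listing that accompanied the data, the libraries labelled 400 d, 240 d, 60 d and 120 d appear as 60 d, 120 d, 240 d and 400 d, in that order. The closest pairing of the listed means with the libraries left a median absolute difference between 0.0194 and 0.0196 on the log2 scale over 206 to 1025 genes, and every other pairing left at least 0.475. The deposited labels were kept as the ages below, and the order of the levels of the 3 genes is given for both readings. In the other reading the sign of every change below between 60 d and 400 d turns, so that each gene said to rise over these labels falls and each gene said to fall rises. The same holds for all other pairs of labels except 60 d and 120 d, whose order is kept.

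The tissue label was checked against markers. DES, NEB, MYOT and TCAP, all genes of the muscle fibre, together reached between 4152 and 9445 FPKM (fragments scaled by transcript length and by the mapped fragments of the library) in the 12 libraries, while the heart genes NPPB, MYBPC3 and HCN4 were below 0.5 FPKM in every library. The feature of ACTA1, the main actin of skeletal muscle, was listed at 0 counts in 7 libraries, including all 3 of 60 d, and it held up to 8.57% of the total count of the libraries in which it was not at 0. Refitting without that feature changed no pairwise call of the 3 genes, and moved the test of PRKAG3 across all ages from an adjusted p of 0.0521 to 0.0495 in edgeR. In a bulk sample, fewer cells of a type and less RNA per cell cannot be told apart.

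PVALB is the feature ENSSSCG00000000138 at chr5:8553415-8573107 on the plus strand of the Sscrofa10.2 build, and MYL3 is ENSSSCG00000011325 at chr13:32978255-32984881 on the minus strand. Neither overlaps another feature. PRKAG3 was taken at ENSSSCG00000023802, positions 14601 to 21077 on the minus strand of the unplaced scaffold JH118559.1. A second feature, ENSSSCG00000016200, carries the same name at chr15:133800016-133807019 on the plus strand, where it overlaps the features of TTLL4 and STK36. Reads from near-identical copies can be divided between the features, and strand was not stated to have been used in counting, so both PRKAG3 features are reported and neither is certain on its own. The scaffold feature held between 29.7% and 41.8% of the counts of the pair in each library.

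PVALB was the most variable of the 3 genes. At 60 d its level was 89.8, 7.03 and 175 FPKM in libraries 1, 2 and 3. At 120 d it was 22.5, 10.6 and 104 FPKM. At 240 d it was 20.9, 9.26 and 19.8 FPKM, and at 400 d it was 7.54, 30.0 and 3.34 FPKM. The highest library exceeded the lowest by 52.5-fold, and the spread within an age was as wide as that between ages. Library 2 of 60 d, the second lowest of all, came from the same age as library 3, the highest, and every pair of ages overlapped. These values rest on between 18 and 767 counts per library.

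The mean PVALB level went down with labelled age, with 90.7 ± 84.1 FPKM (SD, n = 3) in the 60 d group, 45.7 ± 50.7 in the 120 d group, 16.7 ± 6.43 in the 240 d group and 13.6 ± 14.3 in the oldest group. None of the neighbouring ages differed beyond their spread. The log2 change from 60 d to 400 d was -2.71 (SE 1.09), with an adjusted p of 0.0869 in edgeR's quasi-likelihood test, so that this difference of means did not pass the threshold of 0.05. It stayed outside the threshold in 11 of the 12 fits that left out 1 library, with changes from -4.03 to -1.79 over the 12 and adjusted p values up to 0.268. The exception left out library 2 of 60 d, the lowest of its age, which gave a change of -3.27 and an adjusted p of 0.0334. Across all 4 ages the adjusted p was 0.162. In the other reading of the ages the means run 13.6, 16.7, 90.7 and 45.7 FPKM, which is not a steady fall.

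**Figure D1:**
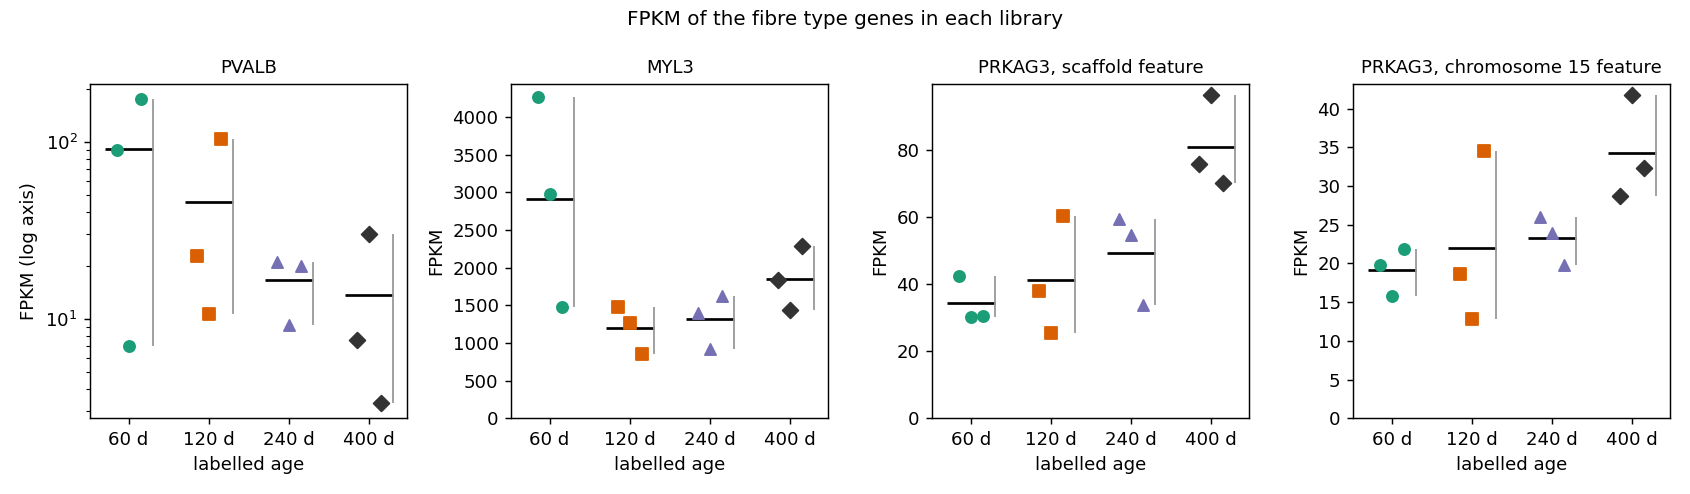
FPKM of PVALB (log axis), MYL3 and both PRKAG3 features (linear axes from 0) in each of the 12 libraries, by labelled age; points are libraries 1 to 3 from left to right, horizontal bars are means and grey vertical lines span the range. PVALB ranges from 3.34 to 175 FPKM and overlaps between all ages, MYL3 is highest in libraries 1 and 2 of 60 d, and the 3 libraries of 400 d lie above all others in the scaffold feature of PRKAG3.

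MYL3 was far more abundant. It measured 4275, 2983 and 1476 FPKM in libraries 1, 2 and 3 of 60 d, and 1477, 1267 and 847 FPKM in those of 120 d. At 240 d it measured 1404, 919 and 1618 FPKM, and at 400 d it measured 1842, 1438 and 2283 FPKM. Libraries 1 and 2 of 60 d stood above the other 10, whereas library 3 of 60 d lay within the range of every other age. Library 3 of 60 d was the library with the most PVALB, and library 3 of 120 d, with the second highest PVALB, had the least MYL3.

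The order of the MYL3 means was 60 d (2911 ± 1401 FPKM, SD, n = 3), 400 d (1854 ± 423), 240 d (1314 ± 358) and 120 d (1197 ± 321), and each neighbouring pair in that order overlapped. The means were thus lowest in the middle ages rather than moving in 1 direction. The largest differences were those from 60 d to 120 d, with a log2 change of -1.25 (SE 0.37) and an adjusted p of 0.375 in edgeR, and from 60 d to 240 d, with a log2 change of -1.12 (SE 0.37) and an adjusted p of 0.0657. Neither passed. The test across all ages gave an adjusted p of 0.0656 in edgeR and 0.00963 in DESeq2, which called 31.4% of all features there. DESeq2 also put the difference from 60 d to 240 d past the threshold with an adjusted p of 0.0184, in a comparison where it called 17.7% of features. In edgeR both passed without library 3 of 60 d, the library of that age with little MYL3, at adjusted p values of 0.0203 and 0.0259. In the other reading of the ages the means run 1854, 1314, 2911 and 1197 FPKM.

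In edgeR, PRKAG3 was the only gene of the 3 that passed a comparison of ages with all 12 libraries. Its scaffold feature measured 42.6, 30.2 and 30.6 FPKM in libraries 1, 2 and 3 of 60 d, and 37.9, 25.5 and 60.4 FPKM in those of 120 d. At 240 d it measured 59.5, 54.5 and 33.6 FPKM, and at 400 d it measured 75.9, 96.3 and 70.2 FPKM. All 3 libraries of 400 d lay above the other 9, while the ranges of 60 d, 120 d and 240 d overlapped.

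The scaffold feature rose 2.30-fold between 60 d and 400 d, a log2 change of 1.20 (SE 0.32) with an adjusted p of 0.0204 in edgeR. In that comparison 23.5% of the 13314 features tested were called, 10.8% as higher and 12.7% as lower at the later age, and the ranges of 39.0% did not overlap. The call was lost without library 2 or library 3 of 60 d, or library 2 of 400 d, with adjusted p values of 0.0579, 0.0588 and 0.0804 and log2 changes of 1.12, 1.10 and 1.03. The change from 120 d to 400 d, 0.97 (SE 0.32), had an adjusted p of 0.0603 in edgeR and 0.0311 in DESeq2, which called 20.0% of features there. The ranges of 120 d and 400 d did not overlap in the scaffold feature, as for 40.2% of all features. Those of 240 d and 400 d did not overlap either, as for 17.8% of all features, with a log2 change of 0.72 (SE 0.31) and an adjusted p of 0.557. Across all ages the adjusted p was 0.0521, where 19.8% of features were called.

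The chromosome 15 feature of PRKAG3 followed the same order of means with smaller differences. It measured 19.8, 15.8 and 21.9 FPKM in libraries 1, 2 and 3 of 60 d and 28.7, 41.8 and 32.4 FPKM in those of 400 d, without overlap. In the middle ages it measured 18.7, 12.8 and 34.5 FPKM at 120 d and 26.0, 24.0 and 19.7 FPKM at 240 d. Its log2 change from 60 d to 400 d was 0.90 (SE 0.31), with an adjusted p of 0.0559 in edgeR, just outside the threshold. With the counts of both features added together, the log2 change was 1.01 and the adjusted p was 0.0340. The order of the scaffold means, 34.5 ± 7.01, 41.3 ± 17.7, 49.2 ± 13.7 and 80.8 ± 13.7 FPKM (SD, n = 3 each) from 60 d to 400 d, becomes 80.8, 49.2, 34.5 and 41.3 FPKM in the other reading of the ages. The called rise of the scaffold feature is then a called fall of the same size from 60 d to 240 d.

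The scale of these levels needs care when the genes are set side by side. Computed from the count, the feature length and the library total, the FPKM would be lower than the listed FPKM by a factor with a median of 1.25 for MYL3, 1.48 for PVALB and 1.52 for the chromosome 15 feature of PRKAG3, but of 5.11 for the scaffold feature. The factor for the scaffold feature stayed between 4.50 and 5.66 in the 12 libraries. It bears on its level beside other genes, and not on the tests above, which used counts. In listed FPKM, PVALB amounted to between 0.146% and 12.3% of MYL3 in the same library, with a median of 1.36%.

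**Figure D2:**
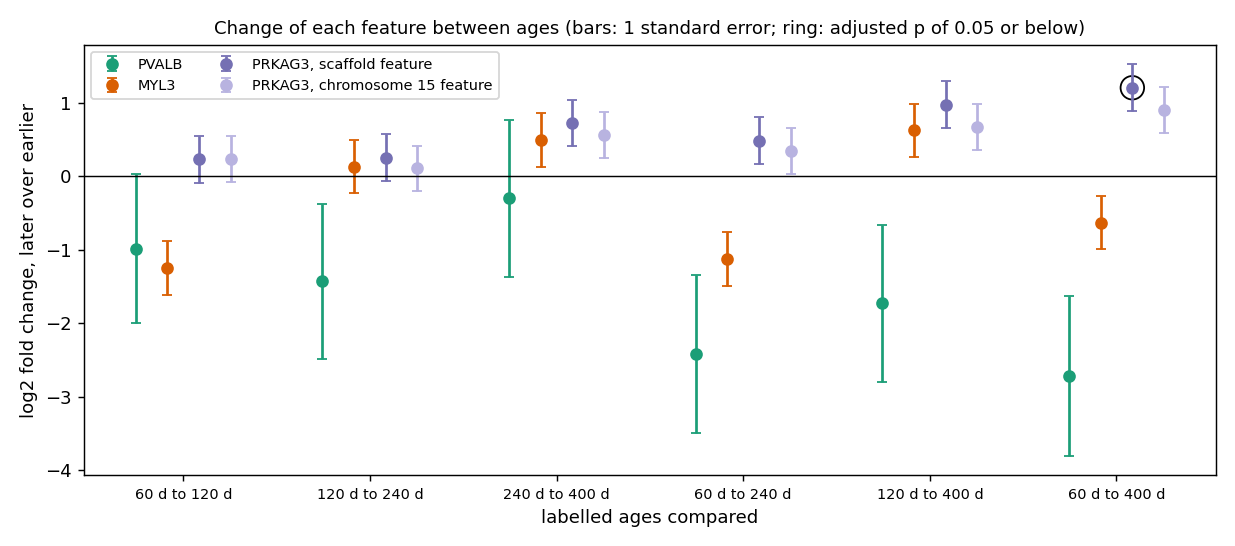
Log2 fold change of each feature, later over earlier labelled age, from edgeR's fit of the counts of all 12 libraries, with bars of 1 standard error, for the 6 pairs of ages; a ring marks an adjusted p of 0.05 or below. The scaffold feature of PRKAG3 from 60 d to 400 d, at 1.20, has the only ring, the PVALB values are all below 0 with the widest bars, and MYL3 changes sign between pairs.

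Between 60 d and 120 d, edgeR called 0.0% of features, and 0.0% between 240 d and 400 d, so no gene could be counted there. At an unadjusted p of 0.05, edgeR counted 1384 and 1176 features in these comparisons, and DESeq2 called 69 and 58 at an adjusted p of 0.05. Neither tool called any of the 3 genes between adjacent ages. PVALB changed by -0.99 (SE 1.01), -1.43 (SE 1.05) and -0.30 (SE 1.07) on the log2 scale over the successive steps, MYL3 by -1.25 (SE 0.37), 0.13 (SE 0.36) and 0.49 (SE 0.36), and PRKAG3 by 0.23 (SE 0.32), 0.25 (SE 0.32) and 0.72 (SE 0.31).

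Whether fast and slow genes oppose each other was asked first over all 12 libraries, on log2(FPKM + 1). PVALB and MYL3 showed no detectable opposition, with a Pearson r of -0.10 (permutation p = 0.754) and a Spearman rho of -0.31 (permutation p = 0.320), both two-sided. Without library 3 of 60 d and library 3 of 400 d, the libraries farthest from the median PVALB level, r was 0.04. Among the 6374 features that averaged 5 FPKM or more, 39.4% had a lower r with PVALB than MYL3 had. PVALB with PRKAG3 gave r = -0.15 (permutation p = 0.647) and rho = -0.03, and MYL3 with PRKAG3 gave r = -0.15 (permutation p = 0.640) and rho = -0.08. Permutation p values adjusted over the 3 pairs were 0.754 for each r.

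The same question was then asked within ages, after subtracting the mean of each age, with the 1296 orders of libraries within ages as an exact permutation test. PVALB and MYL3 had r = -0.44 (exact p = 0.373, adjusted 0.459), and PVALB and PRKAG3 had r = 0.54 (exact p = 0.103, adjusted 0.310). MYL3 and PRKAG3 had r = -0.25 (exact p = 0.459, adjusted 0.459). With the chromosome 15 feature in place of the scaffold feature, PVALB and PRKAG3 had r = 0.74 within ages (exact p = 0.0131, adjusted 0.0394). Which PRKAG3 feature is read therefore changed that call.

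The within-age pattern is easier to see library by library. In 3 of the 4 ages (60 d, 120 d and 400 d), the library with the most PVALB had the least MYL3 of its age. At 400 d the opposition was complete, with PVALB at 3.34, 7.54 and 30.0 FPKM where MYL3 was 2283, 1842 and 1438 FPKM. At 240 d it was absent, since library 2 had the least of both. Library 1 of 60 d ran against it as well, with the most MYL3 of all libraries and the third highest PVALB. Without that library, r was -0.51 over the other 11 libraries (permutation p = 0.112, adjusted 0.336) and -0.71 within ages (exact p = 0.111, adjusted 0.111). That library was singled out because it ran against the pattern, so the stronger r is no support for it. Over the 12 fits that left out 1 library, r ranged from -0.51 to 0.11 between libraries and from -0.71 to -0.16 within ages. The library with the most PVALB also had the most PRKAG3 of its age in 3 of the 4 ages (120 d, 240 d and 400 d).

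**Figure D3:**
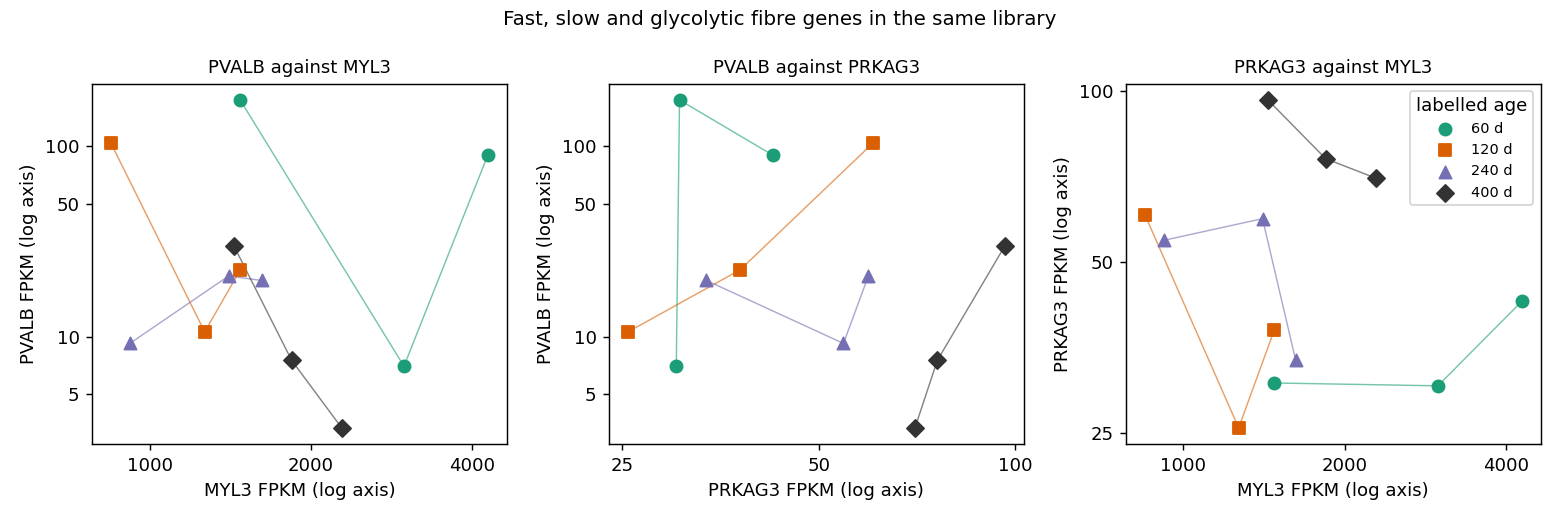
FPKM of PVALB, MYL3 and the scaffold feature of PRKAG3 plotted against each other on log axes, 1 point per library, coloured by labelled age, with thin lines joining the libraries of an age from left to right. PVALB falls as MYL3 goes up across the 3 libraries of 400 d, but library 1 of 60 d is high in both, and the 12 points show no common slope (r = -0.10).

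Over ages, the genes did not move as mirror images either. The log2 ratio of PVALB to MYL3, in FPKM, averaged -5.79 ± 2.83 (SD, n = 3) in the 60 d group and -5.32 ± 2.03 in the 120 d group. It averaged -6.35 ± 0.28 in the 240 d group and -7.65 ± 1.93 in the 400 d group. The libraries of 60 d alone spanned -8.73 to -3.07, which holds the whole range of 240 d and nearly all of that of 120 d (-6.90 to -3.03). Both genes had their highest mean at 60 d. In contrast, PRKAG3, the gene of glycolytic fibres, had its lowest mean at 60 d and its highest at 400 d, where the mean of PVALB was lowest.

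The other genes of the fast fibre machinery were taken from a list of contractile and calcium-handling proteins, of which 10 of 15 could be matched to a feature, PVALB included. The fast myosin heavy chains and the fast troponins T and I were among those not matched. Between 60 d and 400 d, 1 of the 10 fell and none rose, where 12.7% and 10.8% of all features did. The median log2 change of the list was -0.44 against -0.07 over all features tested, with 8 of 10 below 0. The gene that fell was MYLPF, the fast regulatory light chain of myosin, from 30646, 14383 and 22473 FPKM in libraries 1, 2 and 3 of 60 d to 11096, 13434 and 8582 FPKM in those of 400 d, without overlap. Its log2 change was -1.02 (SE 0.32) with an adjusted p of 0.0363 in edgeR, and from 60 d to 240 d, where 11.3% of all features were called, it was -1.12 (SE 0.32) with an adjusted p of 0.0417.

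Other fast genes did not pass the test. CASQ1, the calcium store protein of fast fibres, averaged 3407 ± 1029 FPKM in the 60 d libraries and 1721 ± 296 in those of 240 d, with a log2 change of -0.98 (SE 0.31) and an adjusted p of 0.0586 in edgeR. MYL1, the fast essential light chain and the counterpart of MYL3, averaged 14904 ± 3000 FPKM in the 60 d libraries and 9552 ± 1720 in those of 400 d, with a log2 change of -0.65 (SE 0.28) and an adjusted p of 0.114. ATP2A1, the calcium pump of fast fibres, averaged 3970 ± 664 and 4884 ± 657 FPKM at these ages, with a log2 change of 0.30 (SE 0.29) and an adjusted p of 0.470. Fast genes thus differed among themselves in the direction of their means.

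PVALB ran with most of this list across libraries. Its r was above 0 with 8 of the 8 other fast genes that had a mean of at least 5 FPKM, with a median of 0.64, and was highest with MYLPF (0.78) and CASQ1 (0.74) and lowest with MYOZ1 (0.03). Against the slow list its r was below 0 for 8 of 9 genes, with a median of -0.22. The median r of PVALB with all 6374 features was 0.03. All such values share the same 12 libraries and are descriptions without a test.

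Of the slow fibre list, 9 of 16 genes could be matched, and the slow myosin heavy chain and the slow regulatory light chain were not among them. Between 60 d and 400 d, 1 of the 9 rose and none fell, where 10.8% and 12.7% of all features did. The median log2 change was 0.03, with 5 of 9 above 0. The gene that rose was MYBPC1, the slow form of myosin-binding protein C, from 490, 485 and 501 FPKM in libraries 1, 2 and 3 of 60 d to 1110, 1245 and 1161 FPKM in those of 400 d. The log2 change was 1.27 (SE 0.24) with an adjusted p of 0.00459 in edgeR, and it was also called from 60 d to 240 d, from 120 d to 400 d (13.9% of features called) and between 120 d and 240 d (5.12% called).

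MYL3 itself had r = -0.26 with MYBPC1. It ran instead with the slow troponins, with r = 0.89 for TNNC1, 0.78 for TNNT1 and 0.77 for TNNI1, while the median over 8 slow genes was 0.04. Library 1 of 60 d was the highest of the 12 in MYL3 and in all 3 troponins, at 7791 FPKM for TNNC1, 4440 for TNNT1 and 4260 for TNNI1. The troponins had log2 changes, between 60 d and 400 d, of -0.32 (SE 0.37), 0.03 (SE 0.37) and 0.07 (SE 0.38) in the same order, none of them called. The fast list had a median r of -0.04 with MYL3, with 4 of 9 genes above 0.

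Mitochondrial genes stood closest to MYL3. Over 23 measured genes of oxidative metabolism the median r with MYL3 was 0.64, with 20 above 0, against a median of 0.01 over all 6374 features. SDHB (0.95), SDHA (0.92) and SDHD (0.88), subunits of succinate dehydrogenase, the enzyme used to stain oxidative fibres, were at the top of this list. With PVALB the median r of the same genes was -0.10, and with PRKAG3 it was -0.05. The lowest r with MYL3 in this list were those of HADHA (0.09) and ACADM (-0.01) of beta-oxidation, PDK4 (-0.23), which restrains glucose oxidation, and UCP3 (-0.21). Other genes of fatty acid use in the list had higher r with MYL3, namely CPT2 (0.12), HADHB (0.25), CPT1B (0.32) and FABP3 (0.41).

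In the oxidative list, 3 of 23 genes rose between 60 d and 400 d and 5 fell, where 10.8% and 12.7% of all features did. The median log2 change was -0.27, against -0.07 over all features. The 5 that fell were respiratory chain subunits, NDUFV1, UQCRC1, COX4I1, COX6A2 and COX7A1, with log2 changes from -1.05 to -0.78. The 3 that rose were ACADM, HADHA and CPT2, all of fatty acid oxidation, with log2 changes of 0.98 (SE 0.19), 0.56 (SE 0.19) and 0.77 (SE 0.25) and adjusted p values of 0.00564, 0.0490 and 0.0411 in edgeR. Neither group moved as a whole. NDUFS1 at 0.07, SDHA at -0.38 and SDHB at -0.315 were not called, nor were HADHB at 0.36 and CPT1B at 0.09 of fatty acid use. When 1 library was left out, HADHA was lost in 9 fits, COX6A2 in 7, COX7A1, UQCRC1 and CPT2 in 5 each and NDUFV1 in 1, while ACADM and COX4I1 always held. ACADM went from 74.9, 103 and 85.1 FPKM in libraries 1, 2 and 3 of 60 d to 160, 180 and 176 FPKM in those of 400 d.

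The glycolytic side was read from 20 matched genes of glycogen and glycolysis and 10 of AMPK and its upstream kinases. Of the former, TPI1, PGAM2 and ENO3, enzymes of lower glycolysis and the triose step, fell from 60 d to 400 d, with log2 changes of -1.01 (SE 0.29), -1.02 (SE 0.26) and -0.83 (SE 0.23) and adjusted p values of 0.0268, 0.0171 and 0.0244 in edgeR. PHKA1, a regulatory subunit of the kinase that activates glycogen phosphorylase, rose by 1.14 (SE 0.30) with an adjusted p of 0.0206. Of the 20 genes, 3 thus fell and 1 rose, where 12.7% and 10.8% of all features did. The median of the 20 was -0.10, with 11 below 0, against -0.07 over all features. ENO3 measured 17389, 15168 and 13841 FPKM in libraries 1, 2 and 3 of 60 d and 7460, 9765 and 8681 FPKM in those of 400 d.

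Among AMPK subunits and kinases, 3 of 10 rose from 60 d to 400 d and none fell, where 23.5% of all features were called and 10.8% rose, with a median log2 change of 0.45 and 6 of 10 above 0. Beside PRKAG3 these were PRKAG1, the widely expressed gamma subunit, at 0.74 (SE 0.24) with an adjusted p of 0.0461 in edgeR, and CAB39, a scaffold protein of the upstream kinase complex, at 1.24 (SE 0.28) with an adjusted p of 0.00982. CAB39 measured 22.7, 43.1 and 31.9 FPKM in libraries 1, 2 and 3 of 60 d and 67.8, 86.6 and 81.5 FPKM in those of 400 d, without overlap. The catalytic subunit PRKAA1, at 0.676 to 1.95 FPKM in the 12 libraries, had a log2 change of 0.73 (SE 0.28) and an adjusted p of 0.0711 in edgeR, without overlap of the ranges. From 120 d to 400 d it rose by 0.92 (SE 0.28), with an adjusted p of 0.0457.

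Across libraries, the glycogen and glycolysis list as a whole had a median r of 0.15 with PRKAG3, with 13 of 20 above 0, and of 0.41 with PVALB, with 15 of 20 above 0. Single genes of the lists differed widely. The r of PRKAG3 was 0.83 with ATP2A1, 0.78 with STK11, the upstream kinase of AMPK, 0.78 with PHKB and 0.75 with PHKA1, whereas PVALB had 0.31, 0.10, -0.17 and -0.30 with the same genes. Conversely, MYLPF had r = -0.23 with PRKAG3 and TPI1 had -0.22, against 0.78 and 0.77 with PVALB, and ENO3 and PGAM2 had -0.43 and -0.32 against 0.51 and 0.61. These genes were named after their values were seen.

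Regulators of fibre type were taken from a list of 25, of which 22 were matched. Of the 22, 7 rose and 4 fell between 60 d and 400 d, where 10.8% and 12.7% of all features did. The median log2 change was 0.08, against -0.07 over all features. MEF2A, a partner of myogenic factors, rose by 1.63 (SE 0.22) with an adjusted p of 0.00140 in edgeR. MYOD1, a myogenic factor associated with fast fibres, fell by 2.47 on the log2 scale (SE 0.31, adjusted p of 0.00104), from 71.2, 43.2 and 59.0 FPKM in libraries 1, 2 and 3 of 60 d to 11.8, 12.5 and 6.91 FPKM in those of 400 d. MEF2A had r = 0.69 with PRKAG3 and -0.47 with PVALB, and MYOD1 had -0.57 and 0.58.

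Calcium handling and the developmental myosins completed the lists. Of 13 calcium handling genes matched among 18, 3 rose between 60 d and 400 d and none fell (median 0.38), and the 3 calls are close to the share of 23.5% over all features. They included CACNA1S, the voltage sensor of excitation-contraction coupling, and JPH1, which holds the membranes of that junction together, with log2 changes of 0.70 (SE 0.19) and 0.85 (SE 0.24) and adjusted p values of 0.0228 and 0.0271 in edgeR. Of 5 developmental and other myosin genes tested among 6, MYH3, the embryonic heavy chain, fell by 1.79 on the log2 scale (SE 0.53, adjusted p of 0.0302) and the median was -0.50. Of the 5, 3 were below 0 and 2 above, namely MYH8 at 0.55 (SE 0.37) and MYH6 at 0.605 (SE 0.33), neither called. The MYH3 call was lost in 4 of the fits that left out 1 library. The heavy chain neighbours of MYH3 are near-identical in sequence, so its reads may have been shared with them. The feature named MYH8 averaged 4888 and 7148 FPKM at 60 d and 400 d and that named MYH6 1141 and 1646, against 18.1 and 5.20 for MYH3. MYH1, MYH2, MYH4 and MYH7 were not matched to a feature, so what the names MYH8 and MYH6 stand for here is uncertain.

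Over the 8 lists together, 112 genes were tested. In the comparison of 60 d with 400 d, 32 of them (28.6%) were called, 18 higher and 14 lower, where 23.5% of all features were called. Calls were fewer in the other comparisons, with 18 (16.1%) from 60 d to 240 d, 20 (17.9%) from 120 d to 400 d and 14 (12.5%) between 120 d and 240 d, where 11.3%, 13.9% and 5.12% of all features were called. No list gene was called from 60 d to 120 d or from 240 d to 400 d in edgeR, where 25 and 12 had an unadjusted p of at most 0.05, and DESeq2 called 4 from 60 d to 120 d. Of the 32 calls, 11 held whichever library was left out, among them ACADM, CAB39, COX4I1, HDAC5, MEF2A, MYBPC1, MYOD1, NFATC3 and NFATC4, and 21 were lost in at least 1 such fit. Library 2 of 400 d mattered most, with 19 of the 32 lost without it, and 12 were lost without library 1 of 60 d and 13 without library 3 of 400 d. Calls over all features from 60 d to 400 d also moved in such fits, from 1335 to 3227, against 3124 with all 12 libraries. The losses are therefore not particular to the list genes. MYLPF was lost in 6 of the 12 fits, with adjusted p values in edgeR up to 0.118, PRKAG1 in 7, up to 0.180, and HADHA in 9, up to 0.148. The 14 calls between 120 d and 240 d fell to 0 without library 3 of 120 d and to 0 without library 3 of 240 d. Over all features, calls between these ages ranged from 0 to 1376 when 1 library was left out, against 682 with all 12.

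**Figure D4:**
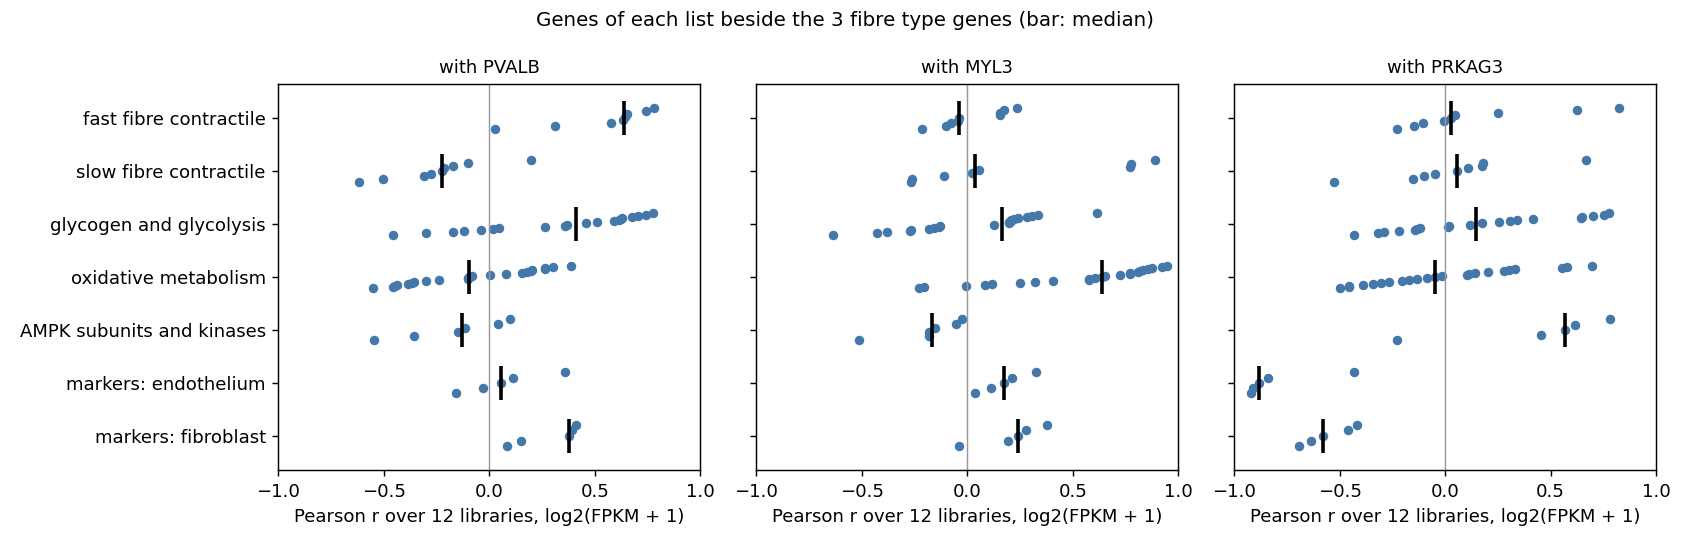
Pearson r over the 12 libraries, on log2(FPKM + 1), of the genes of 7 lists (rows, 1 point per gene, bar at the median) with PVALB, MYL3 and PRKAG3 (panels). The fast list sits to the right with PVALB (median 0.64), the oxidative list to the right with MYL3 (median 0.64), and the endothelial markers to the left with PRKAG3 (median -0.88).

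Markers of other cell types ran opposite to PRKAG3. Of the 5 muscle fibre markers matched, 4 had r above 0 with it, and ACTA1, at 0 counts in 7 libraries, had -0.08. DES, NEB, MYOT and TCAP summed to 5194 to 5678 FPKM in the 60 d libraries and to 7197 to 9445 FPKM in those of 400 d, without overlap. The ranges of 39.0% of all features did not overlap between these ages. None of the 4 was called, with log2 changes of 0.70 (SE 0.28), 1.04 (SE 0.41), 0.24 (SE 0.29) and 0.19 (SE 0.30), and the r with PRKAG3 was 0.59, 0.71, 0.31 and 0.30 in the same order. The 5 endothelial genes matched (PECAM1, KDR, TEK, TIE1 and CLDN5, of 8 listed) had r between -0.92 and -0.43 with PRKAG3, and their summed level ranged from 81.1 to 175 FPKM in the 60 d libraries, 72.7 to 151 in those of 120 d, 64.6 to 101 in those of 240 d and 39.2 to 74.0 in those of 400 d. Of these, PECAM1, KDR and TIE1 fell from 60 d to 400 d, by 1.06 to 1.51 on the log2 scale. In that comparison 12.7% of all features fell, the share to set beside the falls in each marker list here. The 5 fibroblast genes (of 7 listed) had a median r of -0.58 with PRKAG3, with a summed level of 633 to 2077 FPKM in the 60 d libraries and 213 to 499 in those of 400 d, and COL1A2 and COL3A1 fell. Of the 5 Schwann cell genes (of 6), 3 fell, PRX among them, and the list summed to 69.7 to 83.6 FPKM in the youngest and 21.4 to 49.6 in the oldest libraries. The 5 smooth muscle genes (of 5), of which TAGLN and CNN1 fell, summed to 342 to 529 FPKM in the youngest and 160 to 221 in the oldest libraries, and the 5 leukocyte genes (of 6), of which ITGB2 fell, to 14.2 to 21.4 and 3.12 to 10.4 FPKM. None of these lists was at 0, and the part of these markers in the rise of PRKAG3 was not tested.

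Red blood cell genes, 3 of 4 matched, were higher at 60 d than at 400 d and highest in library 1 of 60 d, the library highest in MYL3. They summed to 218 to 1168 FPKM in the 60 d libraries and to 57.3 to 100.4 FPKM in those of 400 d, without overlap. Both genes tested, HBB and ALAS2, fell from 60 d to 400 d, where 12.7% of all features did. They fell by 2.82 and 2.37 on the log2 scale, with adjusted p values of 0.0156 and 0.0110 in edgeR. HBB, a globin chain, measured 1158 FPKM there against 30.5 to 355 in the other 11 libraries, while SLC4A1 was below 0.5 FPKM throughout. The part of blood in the values of that library was not tested. The 4 adipocyte genes matched (of 7) summed to 6.91 to 57.7 FPKM in the 60 d libraries, 9.68 to 22.0 in those of 120 d, 23.8 to 33.3 in those of 240 d and 3.60 to 28.3 in those of 400 d, so fat cell markers overlapped between all ages except 120 d and 240 d.

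The features most like each gene were picked by the highest r among the 4237 named features with a mean of at least 5 FPKM. For PVALB these were HACD1 (0.89), an enzyme of very long chain fatty acid synthesis that muscle expresses, DCTPP1 (0.83), TBC1D10B (0.81), TTLL1 (0.81) and CEPT1 (0.80), and the most opposed were RRM1 (-0.85), SIN3B (-0.84) and AIFM2 (-0.83). The feature of TBC1D10B begins 1996 bases beyond that of MYLPF on chromosome 3, on the other strand, and had r = 0.94 with MYLPF at a mean of 19.6 FPKM against 14965 FPKM. A second feature named DCTPP1, nearer to MYLPF, had r = -0.03 with PVALB, so that name is uncertain.

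For MYL3 the most alike were SDHB (0.95), METAP1D (0.94), SDHA (0.92), the mitochondrially encoded COX2 (0.91) and ARHGAP10 (0.91), and the most opposed were ATF7 (-0.84), FBXO11 (-0.79) and SON (-0.77). For PRKAG3 the most alike were FAN1 (0.96), GPHN, NXN, PABPC4 and DHX32 (each 0.94), and the most opposed were ANXA5 (-0.93), GLRX (-0.93) and the endothelial receptor KDR (-0.92). Of the 15 most alike features, those of MYL3 alone held genes of the fibre type lists, SDHA and SDHB.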

How the data were processed

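LD muscle RNA of 12 pigs was sequenced from NEBNext Ultra libraries. The authors mapped reads to Sscrofa10.2 with TopHat2 and deposited, per gene and library, whole-number counts and FPKM values from Cufflinks. The submitters' processing notes also name Bowtie 0.12.2 and a mouse build, mm8, which does not match the pig chromosomes in the files. Another deposited column, the count times 1 factor per library, was not used. No authors' comparisons were used.

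Counts of all 12 libraries were fitted in edgeR 4.0.16 (R 4.3.3; quasi-likelihood, TMM) over 13314 features (a mean count of 10 or more at any age), with Benjamini-Hochberg adjustment over all of them and a threshold of 0.05. Standard errors are the log2 change over the root of F. Correlations used log2(FPKM + 1) and 100000 permutations, or all orders within ages. Alternatives were DESeq2 1.42.0 and limma 3.58.1. The fits were tested on simulated data. Python 3.11.15, pandas 2.3.3, numpy 2.4.6, scipy 1.17.1 and matplotlib 3.10.9 did the rest. Names came from the reference table for 11472 features and from gene listings of the study for 556. A count of 0 allows up to 3 counts, 0.225 to 0.309 CPM, for counting error only.

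The genes named are the 3 genes, members of the lists and, for each gene, the 5 features with the highest and the 3 with the lowest r. The genes, the lists and the tests were chosen with earlier results of these data known. Some list genes count in the totals but are not reported here by name.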

Additional observations from a re-analysis of the deposited data

How the results depend on the processing

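No paired analysis was possible because the pigs differ between ages and the libraries carry no shared replicate numbers in the labels. With the ages of the gene listing, adjacent changes turned sign for PVALB (0.30 from 60 d to 120 d, 2.42 from 120 d to 240 d), MYL3 (-1.25 from 240 d to 400 d) and PRKAG3 (-0.72 and -0.48 from 60 d to 120 d and on to 240 d), none of them called. The called rise of PRKAG3 between the labels 60 d and 400 d is there a called fall from 60 d to 240 d, and all 32 calls of list genes in that comparison turn in the same way. DESeq2 called MYL3 across ages (adjusted p 0.00963) and from 60 d to 240 d (-1.12), and PRKAG3 across ages (0.0106) and from 120 d to 400 d (0.96). PRKAG3 across ages also passed without a count filter (0.0365) and, chosen after seeing the data, without ACTA1 (0.0495). From 60 d to 400 d the PRKAG3 call was lost at an adjusted p of 0.01 with a change of at least 1 (1.20) and, added after seeing the data, in the chromosome 15 feature (0.90). That feature, also added later, gave r = 0.11 with PVALB between libraries and 0.74 within ages (adjusted p 0.0394).

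Leaving out each library in turn, the log2 change of PVALB ranged from -1.92 to 0.026 (120 d to 240 d), -1.61 to 0.17 (240 d to 400 d) and -4.03 to -1.79 (60 d to 400 d), that of MYL3 from -0.073 to 0.325 (120 d to 240 d) and -1.44 to -0.73 (60 d to 240 d), and that of PRKAG3 from -0.15 to 0.53 (60 d to 120 d), -0.026 to 0.63 (120 d to 240 d), 0.71 to 1.35 (120 d to 400 d) and 1.03 to 1.41 (60 d to 400 d). Adjusted p across ages ranged from 0.0203 to 0.183 for MYL3 and from 0.0270 to 0.181 for PRKAG3. The r of PVALB ranged from -0.51 to 0.11 with MYL3 and from -0.27 to 0.046 with PRKAG3, and that of MYL3 with PRKAG3 within ages from -0.561 to 0.007.

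List genes called ranged from 14 to 32 across ages, 0 to 20 from 120 d to 240 d, 6 to 22 from 60 d to 240 d, 4 to 24 from 120 d to 400 d and 13 to 34 from 60 d to 400 d. Over all features the ranges were 1375 to 2894, 0 to 1376, 255 to 1552, 213 to 2413 and 1335 to 3227 in the same order. With all 12 libraries, 32 of 112 list genes (28.6%) were called across ages, where 19.8% of all features were. Counts over all features for limma, and pair by pair from 120 d to 240 d, are not reported here. In DESeq2 they were 55 across ages, 4 from 60 d to 120 d, 25 from 120 d to 240 d and 35 from 60 d to 240 d, and limma gave 21 across ages. Fitted pair by pair they were 9 from 120 d to 240 d, 2 from 60 d to 240 d and 20 from 60 d to 400 d. At the stricter threshold they were 0, 2, 4 and 9 from 120 d to 240 d, 60 d to 240 d, 120 d to 400 d and 60 d to 400 d. Of all features, DESeq2 called 4177 across ages, 69, 1767 and 58 over the adjacent steps and 2356 from 60 d to 240 d, against 2639, 0, 682, 0 and 1509 in edgeR, which called 2 from 60 d to 120 d without a count filter. Pair by pair, 238 were called from 60 d to 240 d and 1825 from 60 d to 400 d, and at the stricter threshold 0, 112, 155 and 833 in the 4 comparisons above. The causes were not tested. With 3 libraries per age, and between 18 and 767 counts for PVALB, smaller changes may have been missed.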
